A study of Mus musculus with 16 samples.

Results

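The comparison described here is that of ZT13 with ZT1 in the cerebral cortex of control mice given PBS, 6 of the 16 samples of the study. Its members were chosen by sample title, 3 mice titled as evening PBS (ZT13 PBS) and 3 titled as morning PBS (ZT1 PBS). ZT is zeitgeber time, the hours since the lights came on, so that ZT1 falls early in the rest phase of the mouse and ZT13 early in its active phase. All mice were wild-type C57Bl6 males, 2 months old, and received intraperitoneal injections of PBS at ZT1 or at ZT13 on consecutive days. Cortex was collected on the day after the last injection at that same time of day (TOD), so the TOD of injection and of collection cannot be told apart. The other 10 samples came from mice injected in the same way with LPS at 2 mg/kg, 5 at each TOD (ZT1 LPS and ZT13 LPS). A separate treatment field of the labels reads LPS for all 6 samples titled PBS, and it goes against the title in 12 of the 16 samples. *Gfap*, an astrocyte gene that rises in reactive astrocytes, ranged from 111 to 123 CPM over the PBS titles and from 572 to 1134 CPM over the LPS titles, and treatment was taken from the titles throughout. Each sample is 1 mouse, and whole cortex was used, so each value is an average over all of its cells.

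The circadian clock of a cell is a transcriptional loop. BMAL1, the product of *Arntl*, pairs with CLOCK or NPAS2 and activates genes through E-box elements. Among these genes are the *Per* and *Cry* repressors, which close the loop, the *Nr1d1* and *Nr1d2* repressors (REV-ERB), which act on *Arntl* through ROR elements, and output factors such as *Dbp* that act on D-box elements. In nocturnal rodents corticosterone peaks around the onset of the dark phase, body temperature rises then too, and both reach the brain. Brain endothelial cells form the blood-brain barrier (BBB) through tight junctions, and their state depends on VEGF and Notch signaling.

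Expression was measured by RNA-Seq after ribosomal RNA depletion and is given in CPM, that is, a gene's reads scaled to a total of 1000000 gene reads per sample. The most frequent value above 0 in each of these 6 samples, 0.0380 to 0.0494 CPM, was taken as 1 read. From it the reads on genes were inferred at 20251840 to 26346375, since no counts were given. CPM is not divided by gene length, so levels are compared only between samples of the same gene. Of the 55487 genes in the table, 18859 reached 1 CPM in 3 or more of all 16 samples and were tested. Differences are log2 fold changes on the scale log2(CPM + 0.5), ZT13 minus ZT1, which understates the change of low genes. They were fitted with limma on the 6 PBS samples, and a gene with a Benjamini-Hochberg adjusted p under 0.05 was called a DEG.

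At ZT13, 57 genes were higher (0.302% of those tested) and 41 were lower (0.217%), 98 DEGs in all (0.52%). After quantile normalization the split turned, with 94 higher and 105 lower. An unadjusted p under 0.05 was found for 2543 genes, 13.5% of those tested. In all 98 DEGs the 3 ZT13 mice lay on 1 side of the 3 ZT1 mice. Groups that do not overlap were common, however, with 9.52% of all genes tested wholly higher and 9.21% wholly lower at ZT13. Most differences were small, with 65 of the 98 under 0.5 and 11 over 1 in absolute log2 fold change. The DEGs rested on all 6 mice. Of the 98, 22 remained without ZT1 PBS replicate 1, 12 without ZT1 PBS replicate 2, 19 without ZT1 PBS replicate 3, 41 without ZT13 PBS replicate 1, 13 without ZT13 PBS replicate 2 and 56 without ZT13 PBS replicate 3, fits that hold fewer samples. The 9 DEGs called in all 6 of those fits were *Arntl*, *Ciart*, *Usp2*, *Hif3a*, *Plin4*, *Kdr*, *Net1*, *Jph1* and the uncharacterized *Gm42791*. With a prior variance that did not depend on expression level 3 of the 98 remained, all higher at ZT13. With all genes above 0 CPM tested 10 of the 98 remained. Under these last settings, in that order, 0 and 1 of the clock output genes, 1 and 1 of the glucocorticoid-responsive genes and 0 and 0 of the core clock, endothelial and heat shock lists were called. Read by the treatment field in place of the titles, the contrast called 8 of the 98, 6 of them with the same sign, and 24 of the 98 had the other sign. With the titles, no DEG changed sign in the other alternatives.

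**Figure D1:**
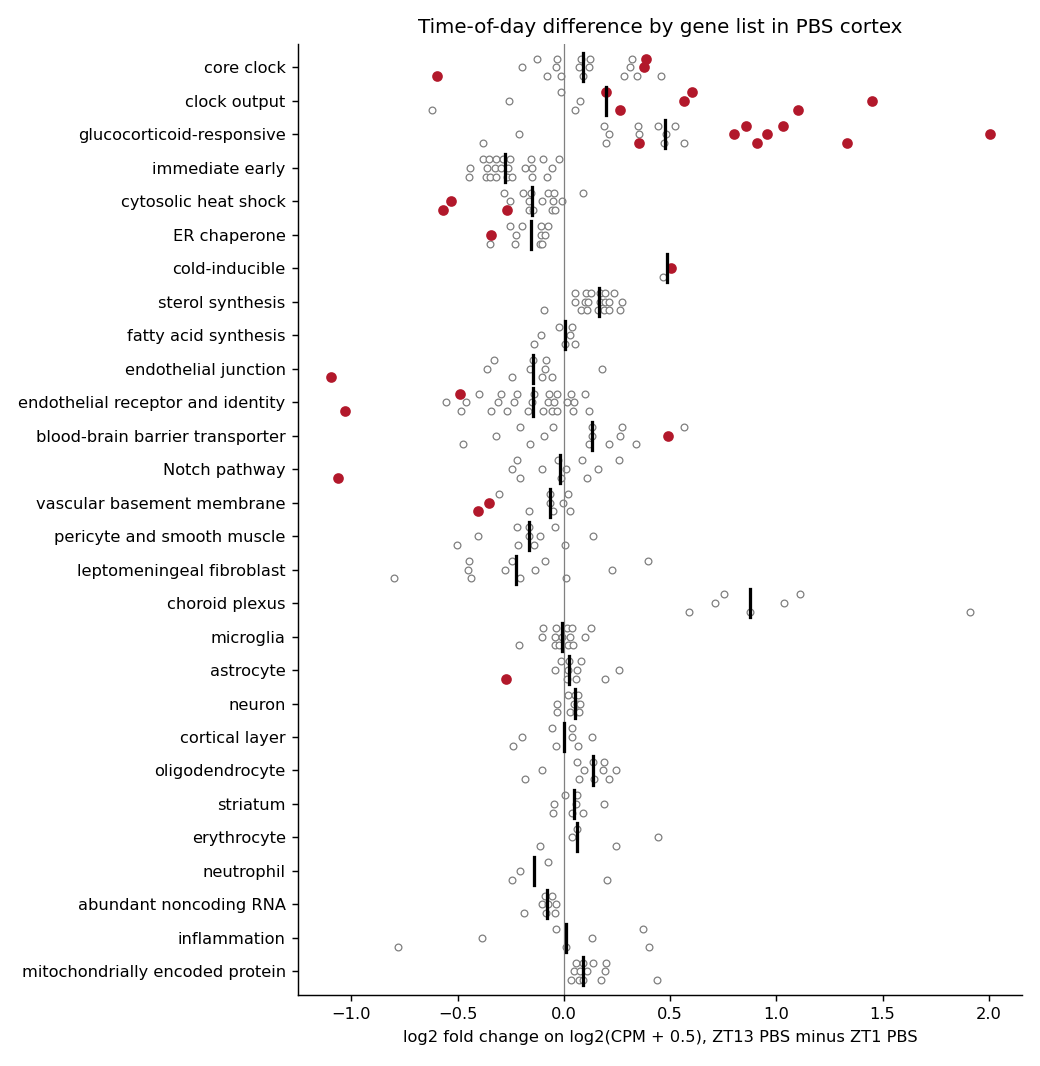
Log2 fold change of ZT13 PBS against ZT1 PBS (x axis) for each tested member of 28 gene lists (y axis). Filled red points are DEGs, open points are genes that did not pass the test, and black bars are list medians; the clock output and glucocorticoid-responsive lists hold DEGs on the right only, and the endothelial junction, endothelial receptor, Notch and basement membrane lists hold DEGs on the left only.

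In the activating arm of the clock *Arntl* (chromosome 7 from 113207465 to 113314126, GRCm38) fell at ZT13. It was at 38.6, 39.4 and 39.3 CPM in the ZT1 mice and at 23.95, 25.8 and 27.3 CPM in the ZT13 mice. The highest ZT13 mouse stood below the lowest ZT1 mouse, and the log2 fold change was -0.60 (SE 0.06, adjusted p = 0.0034). *Npas2*, which encodes an alternative partner of BMAL1, was at 62.4, 72.2 and 66.7 CPM at ZT1 and at 56.9, 60.2 and 58.3 CPM at ZT13, which did not pass the test (-0.20, adjusted p = 0.18). *Clock* itself had a value of -0.08 (adjusted p = 0.42).

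Of the repressors, *Per3* and *Nr1d2* rose. *Per3* (chromosome 4 from 151003652 to 151044665) was at 70.4, 60.3 and 64.4 CPM at ZT1 and at 84.4, 81.3 and 87.5 CPM at ZT13, a log2 fold change of 0.38 (SE 0.06, adjusted p = 0.031). *Nr1d2* (chromosome 14 from 18204054 to 18239127) was at 70.2, 58.3 and 66.5 CPM at ZT1 and at 87.6, 83.4 and 83.5 CPM at ZT13, a log2 fold change of 0.39 (SE 0.06, adjusted p = 0.041). Neither call was firm, since *Per3* kept its call in 1 of the 6 fits without a mouse (adjusted p up to 0.14) and *Nr1d2* in 0 (up to 0.16).

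The other repressors had positive values that missed the threshold. *Per2* was at 60.01, 52.0 and 67.5 CPM at ZT1 and at 71.5, 74.8 and 102 CPM at ZT13 (0.46, adjusted p = 0.19), with ZT13 PBS replicate 3 well above the rest. *Nr1d1* was at 116, 104 and 118 CPM at ZT1 and at 130, 137 and 152 CPM at ZT13 (0.31, adjusted p = 0.087). *Per1* overlapped between the groups, with 182 CPM in the highest ZT1 mouse and 153 CPM in the lowest ZT13 mouse (0.34, adjusted p = 0.38). For *Cry1* the value was 0.28 (adjusted p = 0.19), and for *Bhlhe41*, which encodes the repressor DEC2, it was 0.32 (adjusted p = 0.099). In the 19 core clock genes as a list, 2 rose and 1 fell, beside 0.302% and 0.217% of all genes tested, and 16 did not pass the test. At ZT13, 8 were wholly higher and 2 wholly lower, beside 9.52% and 9.21% of all genes tested. The kinase genes *Csnk1d* and *Csnk1e* had values of -0.04 and -0.02, and the ROR genes *Rora* and *Rorb* both had 0.12, none of them past the test.

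Most output genes of the clock rose. Of 11 output genes 6 rose and none fell by the test, beside 0.302% and 0.217% of all genes tested. Their median log2 fold change was 0.20, beside -0.00 over all genes tested. *Ciart*, a repressor of CLOCK and BMAL1 also called CHRONO, was at 11.4, 9.78 and 11.5 CPM at ZT1 and at 25.8, 31.6 and 34.8 CPM at ZT13. That is a log2 fold change of 1.45 (SE 0.11, adjusted p = 8.3e-04), or 2.82-fold between the mean CPM values. *Dbp* was at 55.5, 37.3 and 47.6 CPM at ZT1 and at 110.5, 91.5 and 97.98 CPM at ZT13 (1.102, SE 0.12, adjusted p = 0.0085). It lost its call narrowly without ZT1 PBS replicate 3 (adjusted p = 0.053). *Usp2*, a deubiquitinase gene, was at 56.5, 61.9 and 59.7 CPM at ZT1 and at 88.6, 88.2 and 87.2 CPM at ZT13 (0.57, SE 0.04, adjusted p = 8.3e-04), and its ZT13 mice were close to each other.

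*Klf15*, which encodes a zinc finger factor that also responds to glucocorticoids, was at 22.7, 21.3 and 22.3 CPM at ZT1 and at 31.7, 32.2 and 37.8 CPM at ZT13 (0.60, SE 0.07, adjusted p = 0.011). *Tef* and *Hlf*, the factors related to *Dbp*, rose less, by a log2 fold change of 0.26 (adjusted p = 0.039) and 0.20 (adjusted p = 0.039). In the 6 fits without a mouse *Klf15* was called in 2 (adjusted p up to 0.064), *Hlf* in 1 (up to 0.17) and *Tef* in 0 (up to 0.15). *Nfil3*, a repressor at the same D-box elements, was at 7.89, 11.1 and 11.7 CPM at ZT1 and at 4.59, 6.43 and 8.78 CPM at ZT13. Its value of -0.62 (SE 0.21, adjusted p = 0.26) did not pass the test, and its groups overlapped. *Wee1*, *Nampt*, *Klf10* and *Cipc* had values between -0.26 and 0.07 and were not called. Without 1 mouse the number of output genes called ranged from 2 (without ZT1 PBS replicate 3) to 5 (without ZT13 PBS replicate 3), and it was 3 without ZT1 PBS replicate 1, ZT1 PBS replicate 2 or ZT13 PBS replicate 2.

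**Figure D2:**
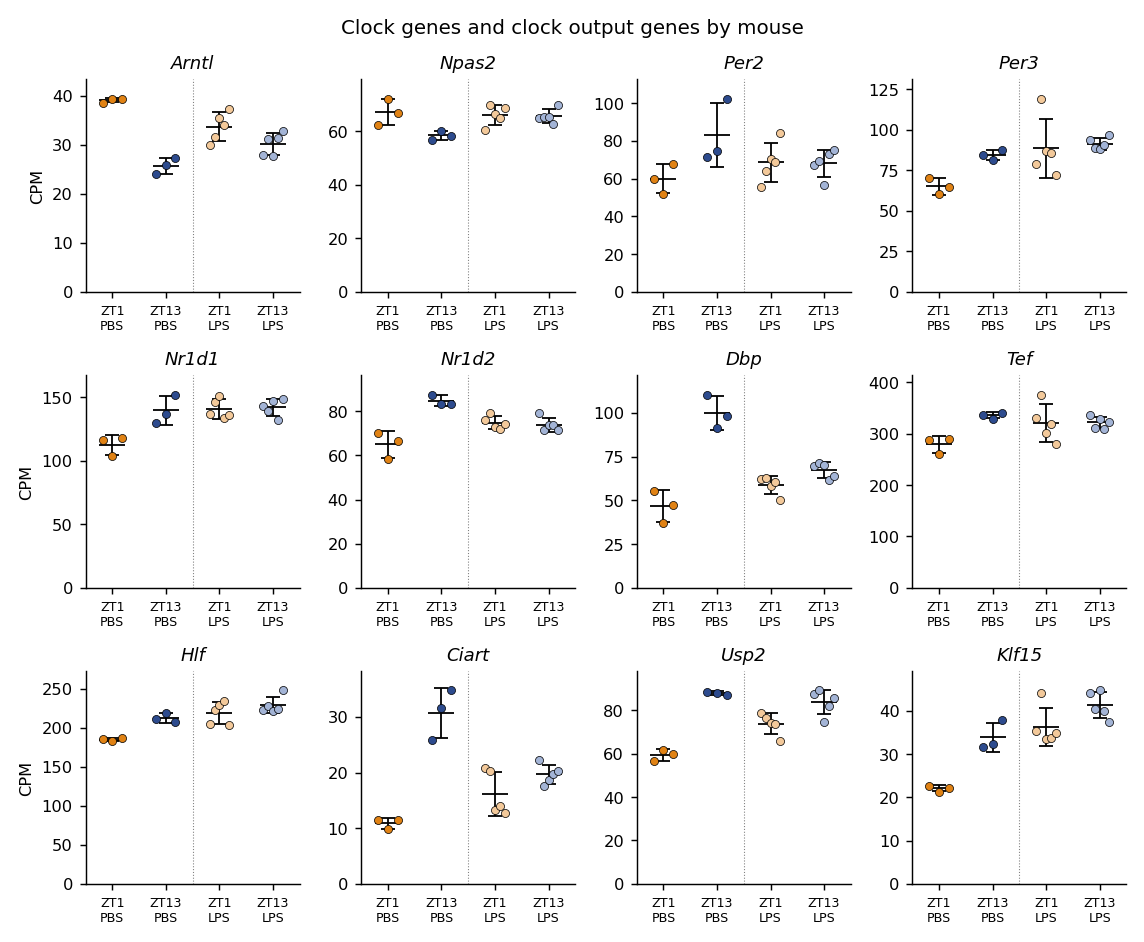
CPM of 12 clock and clock output genes (y axes, from 0) in each mouse of the 4 groups (x axes). Points are mice and black bars are the mean ± SD; in the PBS groups *Arntl* falls from 38.6 to 39.4 CPM at ZT1 to 23.95 to 27.3 CPM at ZT13, and *Ciart*, *Dbp* and *Usp2* rise with no overlap.

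Promoter windows from RefSeq (GRCm38.p6), 250 bases before to 50 after each start, were matched to 12258 of the genes tested, some with several windows, and searched on both strands. The E-box CACGTG was in at least 1 window of 11.1% of these genes, of 8 of 47 genes higher at ZT13 (17.0%), of 3 of 33 genes lower at ZT13 (9.09%) and of 4 of the 9 matched clock output genes (44.4%). Of those 4, *Cipc* was not called. Among 14 matched core clock genes 3 held it (21.4%), *Bhlhe41*, *Cry1* and *Per1*, none of them called. The D-box TTANGTAA was in at least 1 window of 1.91% of these genes and the ROR element TAGGTCA of 2.13%. The sequences below are those of the called clock genes that held a match, shown 5′ to 3′ on the strand of the gene with the matches in capitals.
*Ciart*, chr3:95882229-95882478, minus strand, the 250 bases before the start, with E-boxes beginning 116, 58 and 44 bases before it: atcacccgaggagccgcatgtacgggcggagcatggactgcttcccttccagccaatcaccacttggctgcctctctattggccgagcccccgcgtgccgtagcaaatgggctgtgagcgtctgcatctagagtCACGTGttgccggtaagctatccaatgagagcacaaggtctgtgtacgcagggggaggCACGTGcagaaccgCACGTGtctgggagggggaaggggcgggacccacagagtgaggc
*Klf15*, chr6:90462326-90462578, plus strand, 253 bases that run over the start, with E-boxes beginning 228, 172 and 3 bases before it: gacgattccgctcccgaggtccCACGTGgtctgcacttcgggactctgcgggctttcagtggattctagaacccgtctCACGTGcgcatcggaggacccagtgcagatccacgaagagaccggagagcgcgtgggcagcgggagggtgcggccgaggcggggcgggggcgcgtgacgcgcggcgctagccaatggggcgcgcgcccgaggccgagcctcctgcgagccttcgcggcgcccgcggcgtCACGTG
*Tef*, chr15:81802423-81802672, plus strand, the 250 bases before the start, with an E-box beginning 127 bases before it: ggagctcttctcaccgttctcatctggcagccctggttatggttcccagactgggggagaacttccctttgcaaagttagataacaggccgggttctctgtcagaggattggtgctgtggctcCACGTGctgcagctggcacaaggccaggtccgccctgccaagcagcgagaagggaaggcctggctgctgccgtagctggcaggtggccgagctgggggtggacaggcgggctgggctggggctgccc
*Per3*, chr4:151044666-151044915, minus strand, the 250 bases before the start, with D-boxes beginning 205 and 158 bases before it: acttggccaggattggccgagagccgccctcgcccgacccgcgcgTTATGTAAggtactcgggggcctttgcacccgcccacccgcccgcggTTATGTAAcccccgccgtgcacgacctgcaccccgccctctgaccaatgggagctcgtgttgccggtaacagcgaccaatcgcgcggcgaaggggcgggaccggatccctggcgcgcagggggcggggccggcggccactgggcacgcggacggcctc
*Arntl*, chr7:113207531-113207557, plus strand, with a ROR element beginning 30 bases after the second of its annotated starts: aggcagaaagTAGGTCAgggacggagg
Of these genes, *Ciart*, *Klf15*, *Tef* and *Per3* rose at ZT13 and *Arntl* fell. *Dbp*, *Usp2*, *Hlf* and *Nr1d2*, which also rose, held none of these letters in this window. A match is a description of sequence only, and no binding was measured.

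Glucocorticoid-responsive genes formed the list with the most DEGs by number. The share called was 40%, beside 54.55% of the clock output list and 0.52% of all genes tested. Of 20 members, 8 rose at ZT13 and none fell by the test, and the median log2 fold change was 0.48. Wholly higher were 14, beside 9.52% of all genes tested. *Hif3a*, a subunit gene of the hypoxia-inducible factor family, was at 3.75, 3.9996 and 3.96 CPM at ZT1 and at 14.8, 18.5 and 18.3 CPM at ZT13. Its log2 fold change of 2.00 (SE 0.11, adjusted p = 1.7e-04), or 4.41-fold between mean CPM values, was called in every alternative fit with the titles, and by the treatment field it was 0.70 (adjusted p = 0.043). *Plin4*, which encodes a lipid droplet protein, was at 11.1, 9.88 and 10.7 CPM at ZT1 and at 21.7, 30.3 and 30.9 CPM at ZT13 (1.33, SE 0.13, adjusted p = 0.0034). The kinase gene *Sgk1* was at 31.2, 40.2 and 48.3 CPM at ZT1 and at 76.8, 83.8 and 81.6 CPM at ZT13 (1.03, SE 0.13, adjusted p = 0.011).

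*Fkbp5*, which encodes a co-chaperone of the glucocorticoid receptor, was at 25.0, 22.1 and 23.3 CPM at ZT1 and at 36.6, 52.5 and 45.4 CPM at ZT13 (0.91, SE 0.11, adjusted p = 0.012). ZT13 PBS replicate 1 was the lowest of the ZT13 PBS mice here, as it was for every other DEG of the list. *Tsc22d3*, which encodes the glucocorticoid-induced leucine zipper, was at 30.7, 32.6 and 40.4 CPM at ZT1 and at 54.7, 69.1 and 65.0 CPM at ZT13 (0.86, SE 0.11, adjusted p = 0.013). *Arrdc2*, an arrestin domain gene, was at 7.79, 8.74 and 8.93 CPM at ZT1 and at 14.9, 17.5 and 18.5 CPM at ZT13 (0.96, SE 0.10, adjusted p = 0.0063). *Mt2*, a metallothionein gene, and *Klf9*, a zinc finger factor gene, also rose, by a log2 fold change of 0.80 (adjusted p = 0.031) and 0.35 (adjusted p = 0.020). Of the 12 members that did not pass the test, *Map3k6* had a value of 0.57, *Angptl4* of 0.52 and *Zbtb16* of 0.48, while *Dusp1* and *Cdkn1a* had negative values of -0.21 and -0.38. *Plin4* kept its call in all 6 fits without a mouse. *Arrdc2* lost it without ZT13 PBS replicate 2 (adjusted p = 0.051) and *Sgk1* without ZT1 PBS replicate 2 or ZT13 PBS replicate 2 (up to 0.082). *Fkbp5* and *Tsc22d3* kept it in 3 of the 6, *Mt2* in 2 and *Klf9* in 1 (up to 0.081, 0.082, 0.12 and 0.099). Summed over the list, the ZT1 mice were at 667, 676 and 720 CPM and the ZT13 mice at 840, 1064 and 1020 CPM, with no overlap. Leaving out 1 mouse left 3 members called without ZT1 PBS replicate 2, 4 without ZT1 PBS replicate 1 or ZT13 PBS replicate 2, 5 without ZT1 PBS replicate 3 and 10 without ZT13 PBS replicate 1.

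**Figure D3:**
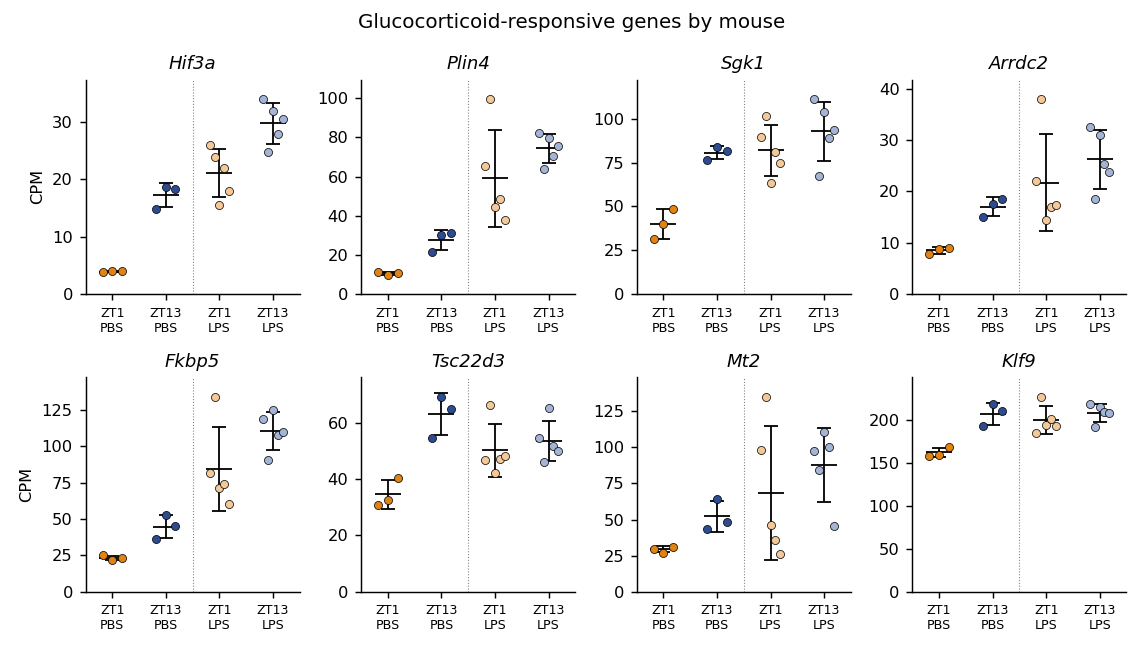
CPM of the 8 glucocorticoid-responsive DEGs (y axes, from 0) in each mouse of the 4 groups (x axes), with points for mice and bars for the mean ± SD. In each panel the 3 ZT13 PBS mice lie above the 3 ZT1 PBS mice, as in *Hif3a* with 14.8 to 18.5 against 3.75 to 3.9996 CPM.

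Among genes that respond to temperature and protein folding, 4 chaperone genes fell and 1 cold-inducible gene rose. Of 18 cytosolic heat shock genes, 3 fell and none rose by the test, beside 0.217% and 0.302% of all genes tested. Their median log2 fold change was -0.15. Wholly lower were 11, beside 9.21% of all genes tested. *Hspa1a*, which encodes an inducible HSP70, was at 24.9, 25.6 and 28.7 CPM at ZT1 and at 17.1, 16.1 and 19.975 CPM at ZT13 (-0.57, SE 0.09, adjusted p = 0.034). *Hspa1b*, a near-identical copy with which it can share reads, had a value of -0.53 (SE 0.09, adjusted p = 0.045), and the split between the copies is uncertain. *Hsph1*, which encodes the HSP105 co-chaperone, was at 212, 218 and 222 CPM at ZT1 and at 173, 180.5 and 187 CPM at ZT13 (-0.27, SE 0.04, adjusted p = 0.020). None of the 3 was called in more than 2 of the 6 fits without a mouse, with adjusted p values of up to 0.21, 0.15 and 0.12 for *Hspa1b*, *Hspa1a* and *Hsph1*.

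Of 12 chaperone genes of the endoplasmic reticulum, *Hspa5*, which encodes BiP, was the 1 DEG, beside 0.217% of all genes tested called lower. All 12 had negative values. *Hspa5* was at 147, 168 and 170.1 CPM at ZT1 and at 121, 128 and 133 CPM at ZT13 (-0.34, SE 0.06, adjusted p = 0.045). *Rbm3*, which encodes an RNA-binding protein induced by mild cold, was at 38.3, 38.6 and 42.4 CPM at ZT1 and at 59.2, 57.5 and 53.0 CPM at ZT13 (0.50, SE 0.06, adjusted p = 0.0099). *Cirbp*, the other gene of that list, had a value of 0.47 and did not pass the test. *Hspa5* lost its call without any mouse of 5 (adjusted p up to 0.20), and *Rbm3* lost it without ZT1 PBS replicate 1, ZT1 PBS replicate 2 or ZT13 PBS replicate 2 (up to 0.070).

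Immediate early genes, which neurons switch on with activity, gave no DEG among 24 by limma. An unadjusted p under 0.05 was found for 5 of them, beside 13.5% of all genes tested. All 24 had negative values, with a median of -0.28 and a range from -0.45 (*Arc*) to -0.02 (*Egr4*). Summed over the list, however, the ZT1 mice were at 2666, 2703 and 3243 CPM and the ZT13 mice at 1557, 2657 and 3062 CPM, and ZT13 PBS replicate 1 stood well below the other 5. The column name of that library carries a suffix that differs from those of the other 15, with no stated meaning. Without that mouse the median turned to 0.03, with 14 of the 24 values positive. No direction is given for this list.

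Most endothelial genes had lower values at ZT13, and 3 passed the test. Of 39 endothelial genes in the junction and the receptor and identity lists, *Cldn5*, *Kdr* and *Flt1* fell and none rose by the test. Over all genes tested 0.217% were called lower and 0.302% higher. Of the 39, 32 had negative values and 16 were wholly lower, beside 9.21% of all genes tested wholly lower. *Cldn5*, the main claudin of BBB tight junctions (chromosome 16 from 18776847 to 18778262), was at 29.7, 27.6 and 26.7 CPM at ZT1 and at 10.4, 13.04 and 15.5 CPM at ZT13. Its log2 fold change was -1.095 (SE 0.12, adjusted p = 0.0085), a mean 2.15-fold higher at ZT1 than at ZT13. *Kdr*, which encodes VEGF receptor 2 (chromosome 5 from 75932827 to 75978458), was at 16.03, 16.7 and 14.8 CPM at ZT1 and at 7.93, 6.61 and 8.02 CPM at ZT13 (-1.03, SE 0.10, adjusted p = 0.0034). *Flt1*, which encodes VEGF receptor 1, was at 62.6, 59.4 and 62.5 CPM at ZT1 and at 42.2, 41.1 and 48.3 CPM at ZT13 (-0.49, SE 0.06, adjusted p = 0.013). In bulk tissue, fewer endothelial cells and less RNA per cell cannot be told apart.

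The other genes of these lists did not pass the test, general endothelial markers among them. *Cdh5*, which encodes VE-cadherin and is expressed throughout the endothelium, was at 13.955, 15.4 and 13.9 CPM at ZT1 and at 10.97, 10.8 and 12.4 CPM at ZT13 (-0.33, adjusted p = 0.14). *Pecam1* had a value of -0.36 and *Icam2* of -0.56, and both, like *Cdh5*, were wholly lower at ZT13. The junction genes *Tjp1* and *Ocln* had -0.06 and -0.08 and *Vwf* had 0.12, and none of these genes passed the test. The median over the junction list was -0.14 and over the receptor and identity list -0.15. Summed CPM over the receptor and identity list was 524 to 539 at ZT1 and 461 to 489 at ZT13, and over the junction list 283 to 293 and 249 to 266.

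In the Notch list 1 of 12 genes fell and in the vascular basement membrane list 2 of 10, beside 0.217% of all genes tested. *Dll4*, the Notch ligand of arterial and tip endothelial cells, was at 3.90, 3.60 and 3.12 CPM at ZT1 and at 1.33, 1.53 and 1.43 CPM at ZT13 (-1.06, SE 0.14, adjusted p = 0.016). The other 11 genes of the Notch list did not pass the test, among them *Notch1* at -0.22, *Jag1* at -0.24 and the target gene *Hes1* at 0.01. *Mmp14*, a membrane-bound metalloprotease gene that is in none of the lists, was at 11.6, 14.6 and 11.2 CPM at ZT1 and at 7.06, 6.98 and 6.85 CPM at ZT13 (-0.78, SE 0.11, adjusted p = 0.023). *Col4a1* and *Col4a2*, neighboring genes for the collagen IV chains of basement membrane, fell by a log2 fold change of -0.40 (adjusted p = 0.031) and -0.36 (adjusted p = 0.034). *Col4a1* was at 58.2, 66.1 and 60.5 CPM at ZT1 and at 44.3, 45.6 and 49.5 CPM at ZT13. The other 8 basement membrane genes did not pass the test, with *Hspg2* at -0.31 and the laminin gene *Lamc1* at 0.03.

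Among transporters of the BBB, 1 gene rose. *Slc2a1*, which encodes the glucose transporter GLUT1, rose from 63.5, 66.3 and 71.9 CPM at ZT1 to 86.5, 90.0 and 108 CPM at ZT13 (0.49, SE 0.08, adjusted p = 0.039). It was the 1 DEG of 15 transporter genes, beside 0.302% of all genes tested called higher. Of the 15, 9 had positive and 6 negative values. *Mfsd2a*, a lipid transporter gene, had a value of 0.57, *Slc38a5* of -0.47 and the efflux pump gene *Abcb1a* of -0.09, none past the test. Pericyte and smooth muscle genes gave no DEG among 11 by limma, with a median of -0.16. An unadjusted p under 0.05 was found for 4 of them, beside 13.5% of all genes tested.

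Of these vascular DEGs and *Mmp14*, *Kdr* kept its call in all 6 fits without a mouse. *Cldn5* lost it without ZT1 PBS replicate 1, ZT1 PBS replicate 2 or ZT13 PBS replicate 2, by a small margin (adjusted p up to 0.054). *Flt1* and *Slc2a1* kept it in 2 of the 6, *Dll4*, *Col4a1* and *Col4a2* in 1 and *Mmp14* in 0, with adjusted p values of up to 0.10, 0.14, 0.079, 0.15, 0.15 and 0.11 in that order.

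**Figure D4:**
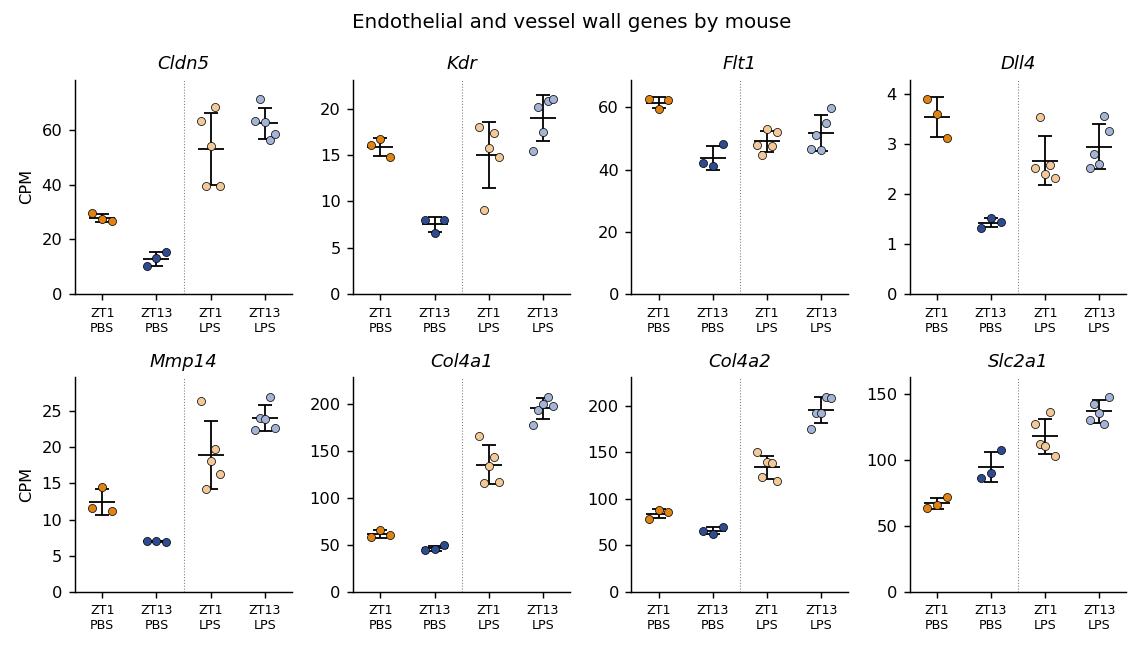
CPM of 8 genes (y axes, from 0) in each mouse of the 4 groups (x axes). Points are mice and bars are the mean ± SD. All but *Mmp14* are members of the endothelial, Notch, basement membrane or transporter lists. In the PBS groups the ZT13 mice lie below the ZT1 mice in every panel except *Slc2a1*, where they lie above; *Cldn5* was at 10.4 to 15.5 CPM at ZT13 against 26.7 to 29.7 CPM at ZT1.

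Most other DEGs fell outside the lists, and the genes of this paragraph beyond *Net1* and *Klhl40* were chosen after their values were seen. *Net1*, a guanine nucleotide exchange factor gene for RhoA, was at 20.3, 20.5 and 21.1 CPM at ZT1 and at 38.9, 37.7 and 35.6 CPM at ZT13 (0.84, SE 0.05, adjusted p = 4.8e-04). *Jph1*, a junctophilin gene, was at 26.0, 27.1 and 25.8 CPM at ZT1 and at 37.8, 37.2 and 37.0 CPM at ZT13 (0.50, SE 0.05, adjusted p = 0.0034). *Klhl40* was at 5.11, 4.12 and 3.96 CPM at ZT1 and at 9.78, 8.99 and 8.90 CPM at ZT13 (1.00, SE 0.12, adjusted p = 0.010). *Mertk*, a receptor kinase gene of phagocytosis, rose by a log2 fold change of 0.49 (adjusted p = 0.011), the mitochondrial carrier gene *Ucp2* by 0.67 (adjusted p = 0.025) and *Edn3*, which encodes endothelin 3, by 0.65 (adjusted p = 0.045). The potassium channel gene *Kcnj3* rose by 0.19 (adjusted p = 0.045) and *Hrh3*, the histamine H3 receptor gene, by 0.42 (adjusted p = 0.039). Of transcription factor genes of neural progenitors and glia, *Sox2* was at 37.6, 35.9 and 36.0 CPM at ZT1 and at 28.5, 27.3 and 26.7 CPM at ZT13 (-0.40, SE 0.05, adjusted p = 0.012). *Sox9* (-0.27, adjusted p = 0.0496) and *Sox4* (-0.29, adjusted p = 0.0495) also fell.

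Among the largest differences were 3 genes listed at 0 CPM in every ZT1 mouse, for which no fold is given. *Gm42791* was at 3.31, 2.96 and 2.04 CPM in the ZT13 mice, *Gm10233* at 1.85, 1.38 and 7.68 CPM and *Hsd3b4*, a hydroxysteroid dehydrogenase family gene, at 1.31, 0.752 and 1.49 CPM. In LPS mice these genes were not at 0 at ZT1 throughout, with up to 2.68, 10.8 and 1.95 CPM. Each of them was also at 0 CPM in at least 1 ZT13 LPS mouse. *Rmrp*, called lower at ZT13 (-0.52, adjusted p = 0.039), is listed under 2 overlapping identifiers on chromosome 4, and the other, a ribozyme, did not pass the test (-0.14, adjusted p = 0.65), so the split of reads between them is uncertain. The processed pseudogene *Gm4735* was lower at ZT13 too (-0.88, adjusted p = 0.031).

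Markers of other cell types were checked in the same 6 samples. Neuron, cortical layer, oligodendrocyte, microglia, striatum, erythrocyte and neutrophil lists gave no DEG by limma, with 2, 2, 4, 1, 1, 0 and 0 members at an unadjusted p under 0.05. Their medians lay between -0.14 and 0.14, and 13.5% of all genes tested had such a p. Neuron genes summed to 9139 to 9820 CPM in all 6 samples, while the neutrophil gene *Elane* was at 0 in all of them. The 4 neutrophil genes tested were under 1 CPM in every PBS mouse and passed the filter through LPS mice. Their lack of a DEG says little of TOD in PBS mice. Leptomeningeal fibroblast genes, which mark the membranes around the brain, gave no DEG among 12 by limma, with 5 at an unadjusted p under 0.05. Their median was -0.23 and their sums were 188 to 283 CPM at ZT1 and 190 to 214 CPM at ZT13. The sums hold *Igf2*, which alone ranged from 57.2 to 114 CPM over the 6 samples. Of the 12, 4 were wholly lower and 1 wholly higher at ZT13, beside 9.21% and 9.52% of all genes tested. In the astrocyte list *Sox9* was the 1 DEG of 11, beside 0.52% of all genes tested, and *Gfap* had a value of 0.03 (adjusted p = 0.86). Choroid plexus genes, which mark tissue outside the cortex, varied widely between libraries of the same TOD. Summed over 7 genes they were at 14.8, 929 and 21.4 CPM in ZT1 PBS replicates 1 to 3 and at 982, 17.3 and 558 CPM in ZT13 PBS replicates 1 to 3. All 7 had positive values (0.59 to 1.91) and none was a DEG or had an unadjusted p under 0.05. With the choroid plexus level as a covariate, 52 genes were higher and 41 lower at ZT13, 72 of them among the 98. The 3 libraries under 100 CPM alone, 2 ZT1 mice and 1 ZT13 mouse, gave 9 higher and 4 lower, 7 among the 98, with the spread taken from the ZT1 mice. The part of choroid plexus tissue in single results was not tested.

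The lists of sterol and fatty acid synthesis, oxidative phosphorylation and ribosomal protein genes gave no DEG. Over all genes tested, 13.5% had an unadjusted p under 0.05 by limma. Of 20 sterol synthesis genes none was a DEG by limma, 13 had an unadjusted p under 0.05 and 19 had positive values (median 0.16), with *Srebf2*, a regulator of the pathway, the exception at -0.09. Of 81 cytosolic ribosomal protein genes and 79 nuclear genes of oxidative phosphorylation none was a DEG, with 4 and 7 at an unadjusted p under 0.05, and both medians were -0.01. The 13 mitochondrially encoded protein genes all had positive values (median 0.09), none a DEG and 1 at an unadjusted p under 0.05. The 7 fatty acid synthesis genes (median 0.01), 8 abundant noncoding RNAs (median -0.08) and 7 inflammation genes tested (median 0.01) gave no DEG by limma, with 0, 3 and 1 at an unadjusted p under 0.05. Most of the inflammation genes tested were under 1 CPM in every PBS mouse and passed the filter through LPS mice. For these the lack of a DEG says little of TOD in PBS mice.

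The same TOD contrast in LPS mice shares no sample with the PBS contrast, and there 4 genes passed the test (0.0212% of those tested). Of the 98 PBS DEGs, 79 had the same sign in LPS mice (80.6%, beside 54% of all genes tested), and an unadjusted p under 0.05 was found there for 19 with the same sign and 6 with the other, beside 10.6% of all genes in either direction. All 6 were among the genes lower at ZT13 in PBS mice, of which another 6 had the same sign at that level. In 95 of the 98 the difference was smaller in LPS mice than in PBS mice (56.9% of all genes tested), with a median absolute log2 fold change of 0.12 against 0.38. The 98 genes were chosen on the PBS difference, so this last count has no test. Of the clock DEGs, *Ciart* had 0.30 there, *Dbp* 0.20, *Usp2* 0.18 and *Arntl* -0.15, while *Per3* had 0.07 and *Nr1d2* -0.02. Over the 11 clock output genes the median in LPS mice was 0.07, with 4 negative, among them *Cipc* (-0.01), which had a positive value in PBS mice.

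Of the 98 DEGs, 13 had a TOD × treatment interaction past the test in all 16 samples (adjusted p under 0.05, met by 0.159% of all genes), and in all 13 it ran against the PBS difference. Because the 98 were chosen on the PBS difference, which the interaction subtracts, neither this count nor this sign is independent of the choice. Of the 13, *Hif3a*, *Net1*, *Dbp*, *Ciart* and *Nr1d2* had a smaller difference in LPS mice, with the same sign or near 0. The ZT1 LPS mice were at 15.5 to 25.9 CPM for *Hif3a* and 30.7 to 41.2 CPM for *Net1*, above the ZT1 PBS mice. For *Ciart*, *Dbp* and *Nr1d2* the ZT13 PBS mice stood above all LPS mice. The others (*Col4a1*, *Col4a2*, *Ccdc190*, *Cldn5*, *Dll4*, *Kdr*, *Mmp14*, *Flt1*) were lower at ZT13 in PBS mice and had positive values in LPS mice. *Kdr* was at 9.04 to 18.004 CPM (median 15.7) in ZT1 LPS and at 15.4 to 21.0 CPM (median 20.2) in ZT13 LPS mice, with overlap. *Cldn5* was at 39.7 to 68.4 CPM (median 54.2) in ZT1 LPS and at 56.4 to 71.4 CPM (median 63.1) in ZT13 LPS mice. For *Col4a2*, the 1 PBS DEG that was also a DEG in LPS mice, the difference there was 0.54 against -0.36 in PBS mice. Over the 39 endothelial genes the median was -0.14 in PBS mice, with 7 positive, and 0.25 in LPS mice, with 34 positive.

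**Figure D5:**
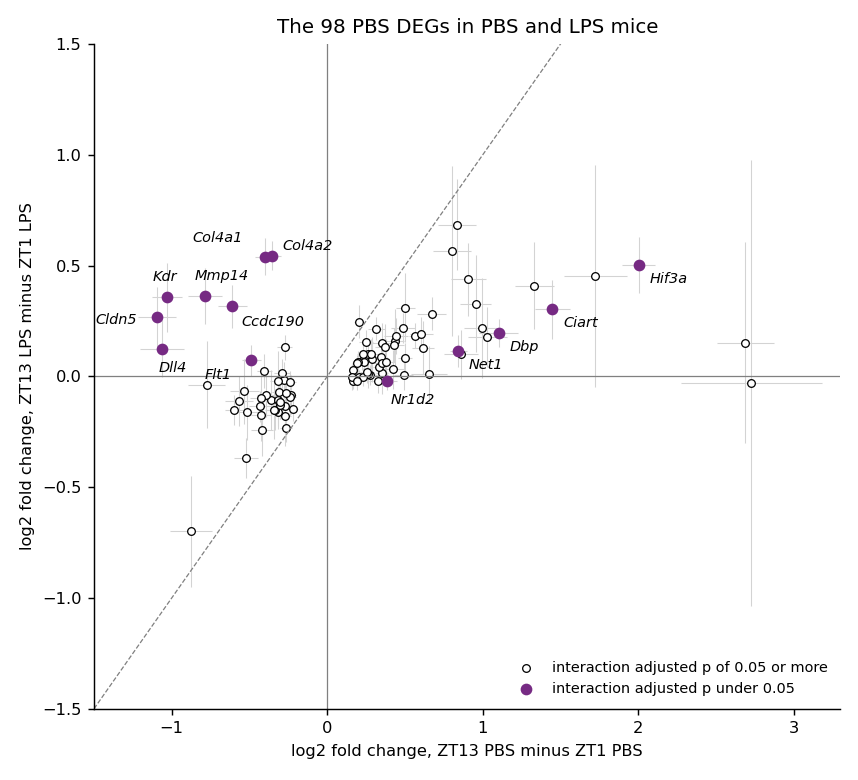
Log2 fold change of ZT13 against ZT1 in PBS mice (x axis) and in LPS mice (y axis) for the 98 PBS DEGs, with standard errors as grey bars and the line of equal change dashed. Filled points are the 13 genes with an interaction past the test; 8 of them lie at the upper left, lower at ZT13 in PBS mice and with positive values in LPS mice.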

How the data were processed

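Ribosomal RNA-depleted RNA-Seq of mouse cortex was deposited by the authors as 1 table of CPM per gene, already scaled to each sample's total. DRAGEN 4.0.3-8, bcl2fastq and the build GRCm38 appear in the submitters' processing notes. Raw counts could not be recovered, since 81.3 to 82.2% of low values in the PBS samples came out as whole reads (tolerance 0.01), so no count model was run. After 287 repeated lines were dropped, limma 3.58.1 (R 4.3.3) was fitted with an intensity trend to log2(CPM + 0.5) of 18859 genes, on the 6 PBS samples, on the 10 LPS samples, and on all 16 for the interaction. P-values were adjusted by Benjamini-Hochberg, and the fit was tested on simulated data. Coordinates are from GENCODE M21.

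The members, gene lists and tests were chosen with earlier results of these data known. Genes named were the clock genes, the 12 largest changes each way, DEGs of the other lists (at most 5 each) or otherwise the member with the smallest p, interaction genes, and *Cldn5*, *Kdr*, *Cdh5* and *Gfap*; not all are printed, some genes are not reported here, and any other list member or gene was chosen after its values were seen. Alternatives changed the pseudocount, filter, scaling, model and samples.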

Additional observations from a re-analysis of the deposited data

Results flagged for a closer look

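The TOD difference differed between PBS and LPS mice in 13 of the 98 DEGs by the interaction term of limma on all 16 samples. Each value is the log2 difference in LPS mice minus that in PBS mice. Because the genes were chosen on the PBS difference, which also enters the interaction, these values are not independent of the choice.

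Of the 13, the members of the endothelial, Notch and basement membrane lists had positive interaction values, as did *Mmp14* from outside the lists. They were 1.39 for *Kdr* (adjusted p = 0.013), 1.36 for *Cldn5* (adjusted p = 0.013), 1.19 for *Dll4* (adjusted p = 0.013), 1.14 for *Mmp14* (adjusted p = 0.016), 0.94 for *Col4a1* (adjusted p = 0.0038), 0.90 for *Col4a2* (adjusted p = 7.5e-04) and 0.56 for *Flt1* (adjusted p = 0.044). *Ccdc190*, whose function is not well described, had 0.93 (adjusted p = 0.011).

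The clock and glucocorticoid-responsive genes among the 13 had negative interaction values. They were -1.50 for *Hif3a* (adjusted p = 0.0026), -1.15 for *Ciart* (adjusted p = 0.029), -0.91 for *Dbp* (adjusted p = 0.011) and -0.40 for *Nr1d2* (adjusted p = 0.036). *Net1* had -0.73 (adjusted p = 0.0062).

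The ZT1 LPS replicate 2 mouse stood apart in *Dll4*, at 3.54 CPM beside 2.58 CPM in the nearest of the other 4. Dixon's test was applied to 26 groups of values, and chance gives such a sample in about 1 group in 20.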

How the results depend on the processing

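The PBS comparison gave 57 genes higher and 41 lower at ZT13. The counts were 35 and 30 with all genes above 0 CPM (10 of the 98 DEGs), 91 and 67 at a minimum of 5 CPM, 100 and 78 with the filter set on the PBS samples, 94 and 105 after quantile normalization, 31 and 12 in a single fit of all 16 samples, and 119 and 84 with GC and length trends removed. Without the intensity trend 3 were higher and 0 lower by limma, with 1045 and 1168 at an unadjusted p under 0.05. Without 1 mouse, counts ranged from 10 to 40 higher and from 2 to 53 lower. Using the treatment field in place of the titles gave 65 and 5. The 3 libraries low in choroid plexus genes gave 9 and 4, an alternative chosen after seeing the data, like the choroid plexus covariate. Both pseudocounts, median-of-ratios scaling, sample weights and that covariate stayed within 1.5 times. The cause of these shifts was not tested.

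With a replicate block the counts were 34 and 23 (49 of the 98 DEGs), and 110 and 78 with GC and length trends removed too. The numbers share no stated origin and same-numbered samples did not deviate together (correlations -0.073, -0.20 and 0.010), so the samples are not treated as paired.

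Among the DEGs, interactions numbered 13, and 3 with all genes above 0 CPM, 26 with sample weights, 2 without the trend and 3 to 15 without 1 mouse. The share with the same sign in LPS mice was 80.6%, and 67.7%, 100% and 70.0% with all genes above 0 CPM, without the trend and with GC and length trends removed, each over its own DEGs, and 72.4 to 96.0% without 1 mouse.

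Of the named genes, none that was called turned sign with the titles. In the low choroid plexus libraries *Csnk1e* turned to 0.004, *Cipc* to -0.068, *Gfap* to -0.046, *Dusp1* to 0.019, *Lamc1* to -0.089 and *Egr4* to 0.181. With GC and length trends removed, with and without the block, *Csnk1e* was at 0.004 and *Egr4* at 0.030, and *Egr4* was at 0.042 with the choroid plexus covariate. Without 1 mouse *Bhlhe40* ranged from -0.060 to 0.237, *Csnk1e* from -0.027 to 0.000, *Wee1* from -0.048 to 0.007, *Cipc* from -0.001 to 0.102, *Gfap* from -0.006 to 0.069, *Arc* from -0.762 to 0.026, *Egr4* from -0.215 to 0.276, *Dusp1* from -0.392 to 0.128, *Vwf* from -0.016 to 0.209, *Lamc1* from -0.045 to 0.082 and *Hes1* from -0.092 to 0.148. With 3 mice at each TOD and 1 read worth up to 0.0494 CPM, small changes in genes near 1 CPM were not detectable.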
